A study of Mus musculus with 8 samples.

Results

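Genes of mitosis, the kinetochore and the spindle were followed in mammary glands that differ in Sox9. The list named 52 genes of the G2 and M phases of the cell cycle, and motor proteins of the kinesin family were left out of it by name, although Cenpe, which was kept, also encodes a kinesin. Of the 52, 51 were measured among the 19938 genes of the array table: a gene counted where a probe set was paired with its symbol alone, and the probe set with the highest mean stood for the gene. Ccnb1, which encodes cyclin B1, had no such probe set. No filter on low values was applied, so all 51 entered every count below unless a sentence says otherwise.

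The glands came from 8 virgin female mice of the C57BL/6 X FVB background at 5 weeks of age, when the ducts grow into the fat pad. In 4 mice the genotype was MMTV-Cre;Sox9 flox/flox, with both copies of Sox9 floxed, and in 4 it was MMTV-Cre;Sox9 flox/+, with a single floxed copy. The controls thus carried the MMTV-Cre transgene too, and their floxed copy can also be recombined. The viral promoter of this transgene (MMTV, mouse mammary tumour virus) is active in mammary epithelium, whereas the RNA came from a whole piece of the fourth gland next to its lymph nodes, with fat, stroma and immune cells. Fewer dividing cells and less of these transcripts per dividing cell therefore cannot be told apart. Each mouse gave 1 array. Array medians of the deposited linear intensities ran from 159 to 178. The targeted gene, Sox9, read 410 ± 35.1 (SD, n = 4) in flox/+ and 323 ± 35.7 (SD, n = 4) in flox/flox glands, without overlap, and whether its probes lie in the deleted part is not given. Summed markers of luminal epithelium lay between 16500 and 19600 in flox/+ and between 15400 and 19400 in flox/flox glands, with no marker at 0, so both genotypes held epithelium.

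Dividing cells make most of these transcripts only from late S phase to mitosis. Cyclins A and B switch on the kinase CDK1, condensins fold the chromosomes, and kinetochores assembled on CENP-A chromatin attach them to the spindle. The spindle checkpoint holds back the anaphase-promoting complex, a ubiquitin ligase, until every kinetochore is attached. The complex then triggers separation of the sister chromatids and, with the loss of cyclin B, the exit from mitosis. In the pubertal gland the terminal end buds at the tips of the ducts are the best known site of such division.

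All 51 genes read lower in the flox/flox glands on average, a direction that 52.6% of all genes shared. Intensities are given after quantile normalization. A difference is the mean log2 value of flox/flox glands less that of flox/+ glands, taken after adding 16 to each intensity, with limma's standard error; percentages of the control level and folds are on this offset scale too. The median difference was -0.34, or 79.0% of the control level, against a median of -0.01 over all genes. The size ran from -0.68 for Top2a to -0.03 for Cenpk, and 5 genes (Top2a, Mki67, Cenpe, Ccna2 and Plk1) were lower by more than 1.5-fold. In 48 of the 51 the highest of the 8 values lay in a flox/+ gland, and in 47 the lowest lay in a flox/flox gland.

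By limma with Benjamini-Hochberg adjustment over all genes, 0 of the 51 passed at 0.05, beside 0.0401% of all genes in either direction. The smallest adjusted p was 0.0531, for Cenpe. At an unadjusted p under 0.05 there were 35 lower and 0 higher, or 68.6% of the list, while 5.46% of all genes were lower and 4.81% higher by the same rule. In 25 genes every flox/flox value lay below every flox/+ value, which holds for 3.16% of all genes, and in 0 every value lay above, which holds for 2.74%. For each of these 25 the 2-sided exact permutation test over the 70 assignments of the arrays gives p = 0.0286, and no smaller p is possible with 4 arrays in each genotype. The genes were put together with results of these arrays known and tend to move together within a gland, so the counts describe the list and are not a test of it.

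**Figure D1:**
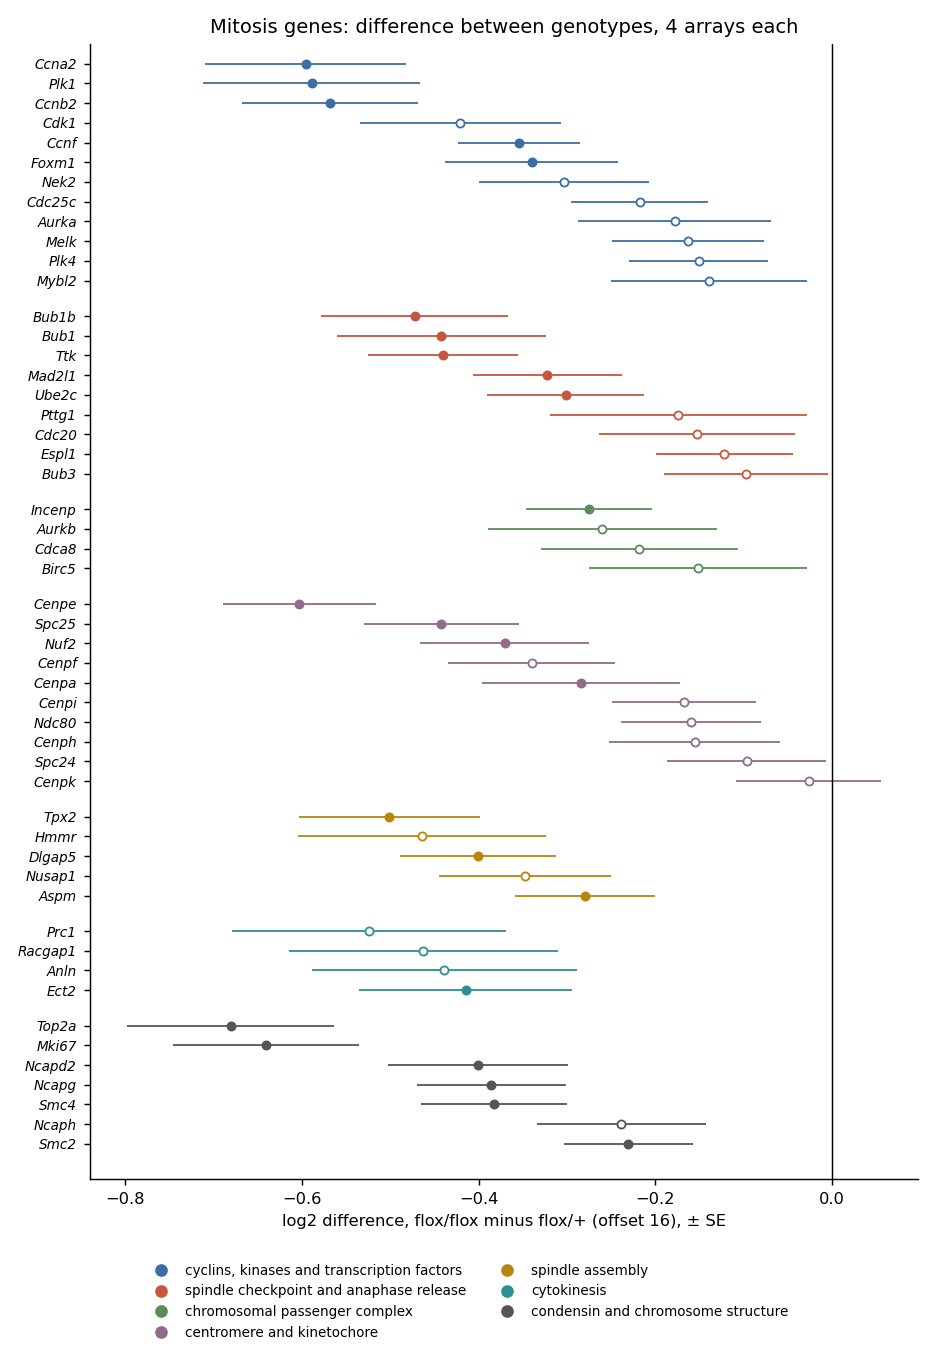
Log2 difference (flox/flox less flox/+, offset 16) with limma's SE for the 51 genes, 4 arrays per genotype, coloured by role and sorted within each role. Filled points mark the 25 genes whose values did not overlap between the genotypes. All points lie left of 0, from -0.68 (Top2a) to -0.03 (Cenpk).

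All 7 genes of condensin and chromosome structure had an unadjusted p under 0.05, with a median difference of -0.39, and 6 of 7 showed no overlap. Beside these and the later counts by role stand 5.46% of all genes lower at that p and 3.16% lower without overlap. Top2a, the topoisomerase that untangles sister chromatids (chromosome 11), read 318, 344, 393 and 379 in flox/+ replicates 1 to 4 and 189, 192, 278 and 218 in flox/flox replicates 1 to 4. Flox/flox replicate 3 was the nearest to the controls and still lay below all of them. The difference was -0.68 ± 0.12 (SE), with a limma adjusted p of 0.1. A second probe set of Top2a read far dimmer, at 37.3 ± 5.69 (SD, n = 4) in flox/+ and 35.2 ± 4.71 (SD, n = 4) in flox/flox glands, with a difference of -0.06 ± 0.09 (SE; unadjusted p = 0.542 by limma). With the mean over probe sets in place of the brightest one, Top2a was at -0.37 and no longer had the largest difference, since Mki67 was at -0.64.

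Mki67, which coats mitotic chromosomes and is the usual marker of cycling cells (chromosome 7), read 306, 321, 386 and 368 in the controls. In the flox/flox glands it read 205, 198, 263 and 198, again with replicate 3 highest. Its level was 64.1% of the control level (adjusted p = 0.0857 by limma). Among the condensin subunits Smc4, an ATPase of the complex, read 600.5, 736, 669 and 614 in flox/+ and 462, 477, 541 and 511 in flox/flox glands. Ncaph, the subunit that closes the condensin I ring, had the largest p of this role (0.0302 unadjusted by limma), with 167, 145, 189 and 188 against 138, 139.8, 165 and 131. Its values overlapped through flox/flox replicate 3, which lay above flox/+ replicate 2. The condensin I subunits Ncapg and Ncapd2 differed by -0.39 and -0.40, without overlap, and Smc2, the partner of Smc4, by -0.23, also without overlap.

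**Figure D2:**
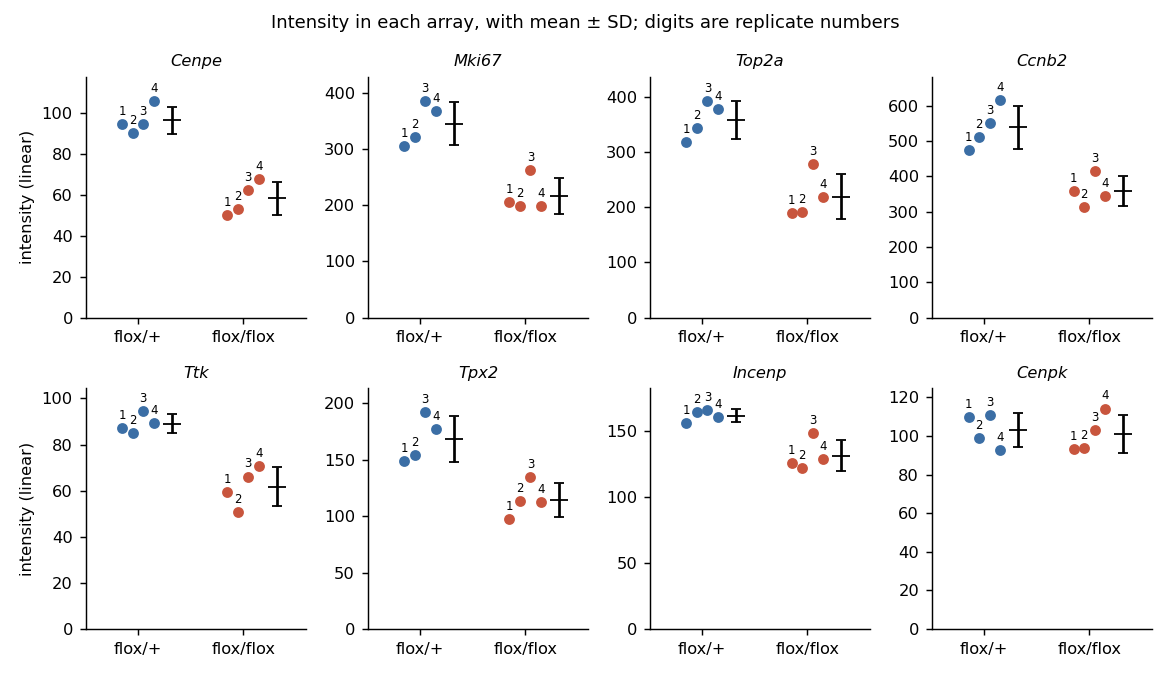
Intensity (linear scale, axes from 0) of 8 genes in each of the 8 arrays; digits are replicate numbers, bars are the mean ± SD of 4 arrays. Top2a, Mki67, Cenpe, Ccnb2, Ttk, Tpx2 and Incenp show no overlap between the genotypes, whereas Cenpk does.

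Centromere and kinetochore genes ranged from -0.60 for Cenpe to -0.03 for Cenpk, with a median of -0.23 over 10 genes and 5 of 10 at an unadjusted p under 0.05. Cenpe, the kinesin that carries chromosomes to the spindle equator (probe set 10496204, chromosome 3), read 94.8, 90.1, 94.8 and 106 in flox/+ glands. The flox/flox glands read 49.97, 53.2, 62.4 and 67.5, so that its level was 65.8% of the control level. The difference of -0.60 ± 0.09 (SE; 95% interval -0.79 to -0.41) had an adjusted p of 0.0531 by limma, just short of the threshold. It passed with median centring (0.0494), with an offset of 64 (0.0499), with trend and robust options (0.0388) and with the luminal score as covariate (0.0461). It did not pass in the other settings that kept the gene, and the offset of 64 gave a difference of -0.39.

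The outer kinetochore binds microtubules through the NDC80 complex, whose 4 subunits were all measured and are given side by side. Spc25 read 191, 164, 196 and 211 in flox/+ and 122, 131, 150.2 and 141 in flox/flox glands, a difference of -0.44 ± 0.09 (SE). Nuf2 read 167, 121, 145 and 164 against 105, 108, 121 and 111, and its highest flox/flox value and its lowest control value were nearly equal. Ndc80 (-0.16 ± 0.08 SE) and Spc24 (-0.10 ± 0.09 SE) had unadjusted p-values of 0.0692 and 0.305 by limma. Whether the subunits differ from each other in their response was not tested.

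Cenpk belongs to the constitutive centromere network, on which the kinetochore is built. It read 110.0, 99.1, 111 and 93.0 in flox/+ and 93.2, 93.9, 103 and 114 in flox/flox glands, and the highest of all values was flox/flox replicate 4. Its 95% interval was -0.21 to 0.15, and its sign turned in 5 of the 21 settings that kept the gene. Cenph and Cenpi, of the same network, were at -0.16 ± 0.10 and -0.17 ± 0.08 (SE). Cenpa, the histone variant that marks the centromere, read 434 ± 64.9 in flox/+ and 352 ± 41.4 in flox/flox glands (SD, n = 4) without overlap, and Cenpf, a large protein of the kinetochore corona, was at -0.34 ± 0.09 (SE).

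Of the cyclins, kinases and transcription factors 8 of 12 had an unadjusted p under 0.05, with a median of -0.32. Ccnb2, encoding cyclin B2, read 475, 511, 551 and 615 in flox/+ and 359, 314, 414 and 344 in flox/flox glands. Ccna2, encoding cyclin A2, read 243, 259, 318 and 315 against 164, 171, 224 and 171. Ccnf, the F-box cyclin that targets proteins for destruction in G2, read 96.7, 103, 104 and 110.3 against 81.8, 72.4, 83.2 and 72.6. None of these cyclins overlapped between the genotypes, and their differences were -0.57, -0.60 and -0.35 with limma adjusted p-values of 0.106, 0.122 and 0.126.

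Plk1, the kinase that drives entry into mitosis and spindle maturation, was the kinase with the largest difference (-0.59 ± 0.12 SE), at 225 ± 25.2 in flox/+ and 145 ± 30.1 in flox/flox glands (SD, n = 4). Cdk1, the central mitotic kinase, read 358 ± 39.3 and 265 ± 44.2 (SD, n = 4), and flox/flox replicate 3 at 326 lay above flox/+ replicate 1 at 316. The phosphatase gene Cdc25c, which activates CDK1, was at -0.22 ± 0.08 (SE), and the centrosomal kinase gene Nek2 at -0.30 ± 0.10 (SE). Aurka, the spindle pole kinase, Plk4, which starts centriole duplication, and the kinase gene Melk lay between -0.15 and -0.18 with unadjusted p-values of 0.132, 0.0803 and 0.0861 by limma. Foxm1 and Mybl2 encode transcription factors of the G2 programme, and whether they differ in their response was not tested. Foxm1 read 135 ± 10.2 in flox/+ and 104 ± 16.02 in flox/flox glands (SD, n = 4) without overlap. Mybl2, the gene of B-MYB, read 229, 226, 208 and 214 in flox/+ and 187, 156, 242 and 213 in flox/flox glands, where replicate 3 was the highest of all 8 arrays.

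Of the spindle checkpoint and anaphase genes, 5 of 9 had an unadjusted p under 0.05, all 5 without overlap. Ttk, encoding the checkpoint kinase MPS1, read 87.3, 84.8, 94.4 and 89.4 in flox/+ and 59.2, 50.9, 66.1 and 70.5 in flox/flox glands. Bub1b, encoding BUBR1 of the inhibitory checkpoint complex, read 206, 183, 240.3 and 247 against 155, 139.5, 177 and 140.3. Mad2l1, encoding the MAD2 protein that captures CDC20, read 257, 247, 293 and 285 against 199, 208, 245 and 202. Flox/flox replicate 3 lay just under the lowest control in the latter pair, and the differences were -0.44, -0.47 and -0.32 with adjusted p-values of 0.122, 0.18 and 0.239 by limma. The kinase gene Bub1 (-0.44 ± 0.12 SE) and Ube2c (-0.30 ± 0.09 SE), the ubiquitin-conjugating enzyme of the anaphase-promoting complex, were the other pair without overlap.

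Cdc20, which activates that complex, Espl1, the protease that cuts cohesin, and Pttg1, the securin that inhibits it, lay at -0.15, -0.12 and -0.17. Their 95% intervals reached from -0.40 to 0.09, from -0.29 to 0.05 and from -0.50 to 0.15, so a difference as large as the list's median is inside the interval of Cdc20 and Pttg1 but not of Espl1. Pttg1 was the exception in its pattern over the arrays: flox/flox replicate 3, at 258, was its lowest, and the other flox/flox values, from 391 to 436, lay around the controls, from 398 to 471. Bub3, which also works outside mitosis, read 756, 733, 732 and 569 in flox/+ and 600.1, 666, 661 and 663 in flox/flox glands. Its single low control value lay below all the flox/flox values.

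The chromosomal passenger complex corrects faulty attachments and later acts at the midzone, and 1 of its 4 genes had an unadjusted p under 0.05. Incenp, the scaffold of the complex, read 156, 165, 166 and 161 in flox/+ and 126, 122, 149 and 129 in flox/flox glands (-0.28 ± 0.07 SE). Its kinase Aurkb read 179, 178, 236 and 246 against 169, 156, 214 and 151. The targeting subunits overlapped more widely. Cdca8, encoding borealin, read 256, 250.3, 213 and 179 in flox/+ and 172, 189.9, 216 and 181 in flox/flox glands. Birc5, encoding survivin, read 80.4, 95.05, 106 and 138 against 91.8, 89.3, 99.6 and 84.5, so that the lowest value of all 8 was a control.

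All 5 spindle assembly genes and all 4 cytokinesis genes had an unadjusted p under 0.05, with medians of -0.40 and -0.45. Tpx2, which nucleates microtubules around chromosomes and activates Aurora A, read 149, 154, 193 and 177 in flox/+ and 97.0, 113, 134 and 112 in flox/flox glands. Dlgap5, encoding the spindle protein HURP, read 146, 148, 163 and 168 against 117, 101, 134 and 108. These genes and Aspm, a protein of the spindle poles (-0.28 ± 0.08 SE), did not overlap between the genotypes. Nusap1, a microtubule bundling protein, read 116, 112, 127 and 124 in flox/+ and 81.0, 84.3, 115 and 85.3 in flox/flox glands. Hmmr, which tethers spindle poles, read 79.6, 62.4, 76.4 and 89.5 against 45.0, 40.1, 73.7 and 49.8. In both of these, flox/flox replicate 3 alone lay inside the control range.

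Cytokinesis genes had the widest spread within a genotype. Prc1, which bundles the midzone microtubules, read 97.0, 93.7, 123 and 123 in flox/+ and 69.5, 47.8, 97.5 and 74.0 in flox/flox glands. Ect2, the exchange factor that turns on RhoA at the cleavage furrow, read 132, 124, 169 and 186 against 98.1, 101, 119 and 120.1, and was the one without overlap. Racgap1, a subunit of centralspindlin that recruits ECT2, read 188, 186, 224 and 280.1 in flox/+ and 147, 128, 206 and 139.5 in flox/flox glands. Anln, the ring scaffold anillin, read 169.9, 135, 190.3 and 225 against 118, 121, 166 and 107. The limma adjusted p-values of these 4 genes lay between 0.269 and 0.337, and their differences between -0.41 and -0.52. With the fibroblast score as covariate, Ect2, Prc1 and Racgap1 were at -0.25, -0.27 and -0.27.

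The genes of the list were high or low together from gland to gland. As the mean over the 51 genes of the log2 distance from each gene's own average, flox/+ replicates 1 to 4 stood at 0.10, 0.07, 0.22 and 0.26, and flox/flox replicates 1 to 4 at -0.21, -0.26, 0.00 and -0.19. Thus flox/+ replicate 4 held the highest value of 25 genes and flox/+ replicate 3 of 17, while flox/flox replicate 2 held the lowest of 21 and flox/flox replicate 1 of 14. Flox/flox replicate 3 stood apart from its group: 23 of the 51 genes lay below their average there, against 46 to 50 in the other flox/flox glands. Leaving out the flox/flox gland nearest to the controls widens the difference by construction. Without that array the median was -0.38, and 40 genes had an unadjusted p under 0.05, beside 5.7% of all genes lower. In 37 genes the values did not overlap, which is easier to reach with 3 arrays than with 4. The share of all genes without overlap is not given for that number of arrays. The limma threshold was passed by 3 genes (Plk1, Mki67 and Top2a), with adjusted p-values down to 0.0229, against 19 among all genes. With any other array left out 0 of the 51 passed, and from 33 to 40 had an unadjusted p under 0.05.

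**Figure D3:**
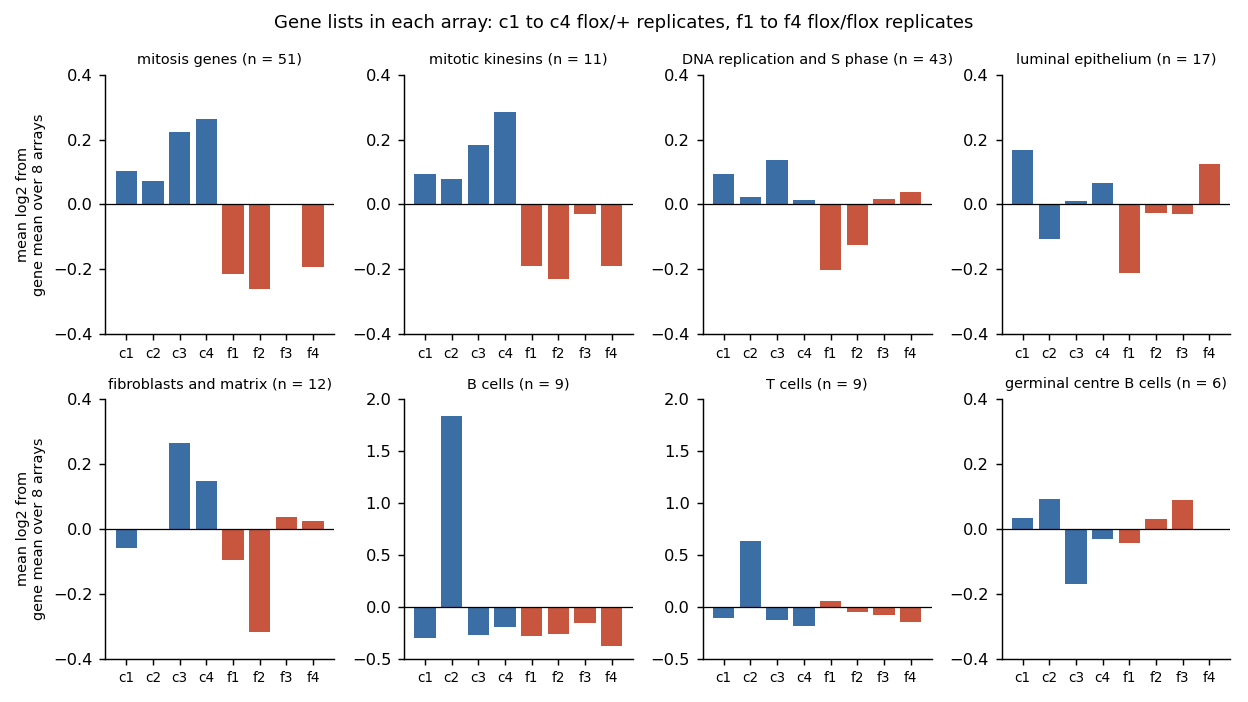
Mean log2 distance from each gene's average over the 8 arrays, for 8 gene lists in each array (c, flox/+; f, flox/flox; digits, replicates); the B and T cell panels have a wider axis. The mitosis genes stand at 0.07 to 0.26 in flox/+ and at -0.26 to 0.00 in flox/flox glands, and the B cell markers at 1.84 in flox/+ replicate 2.

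Other lists were set beside these values, gland by gland. Lymphocytes also divide, and the tissue lay next to lymph nodes. B cell markers, 9 of 10 measured, summed to between 880 and 4770 in flox/+ and between 825 and 943 in flox/flox glands, with none at 0. The 4770 was flox/+ replicate 2, in which the T cell markers were highest too, at 2030 against 1050 to 1270 elsewhere. That gland had the lowest mean of the mitosis genes among the controls, and without it the median difference was -0.36 and 36 genes had an unadjusted p under 0.05. Germinal centre B cell markers, 6 of 8 measured, summed to 934 to 1180 in flox/+ and 1060 to 1260 in flox/flox glands.

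Fibroblast and matrix markers moved with the mitosis genes in part. All 12 were measured, 9 of them lower in flox/flox glands. Their sums ran from 49900 to 63900 in flox/+ and from 43900 to 55900 in flox/flox glands, with the highest sum in flox/+ replicate 3. A marker score used as a covariate, here and above, was not this sum. It was the mean over the markers of their log2 values, each centred and divided by its SD over the arrays. With the fibroblast score as a covariate the median of the mitosis genes was -0.26, with 29 of 51 at an unadjusted p under 0.05 and 49 of 51 below 0. Of 17 luminal markers 10 were lower in flox/flox glands. Among the 17, 2 (11.8%) were lower at an unadjusted p under 0.05 and without overlap, against 5.46% and 3.16% of all genes. Their smallest adjusted p was 0.0501 by limma. With the luminal score as a covariate the median of the mitosis genes was -0.33, and 35 of them had an unadjusted p under 0.05. Marker lists that did not overlap between the genotypes in their mean were those of granulocytes and mast cells, higher in flox/flox (12 measured, none at 0, summed from 2590 to 2960 in flox/+ and from 2810 to 3580 in flox/flox), and of skin and hair, lower in flox/flox (9 measured, none at 0, summed from 2200 to 2530 and from 2020 to 2340). Of 7 terminal end bud markers 6 were measured, 2 of them lower and 4 higher in flox/flox glands. They summed from 2350 to 3440 in flox/+ and from 2680 to 3170 in flox/flox glands, and their mean overlapped between the genotypes. The part of these lists in the result was not tested.

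Promoters of mitosis genes are known for a CHR element, the site through which the DREAM repressor keeps them silent in resting cells and B-MYB with FOXM1 later switches them on, placed downstream of CCAAT boxes, which bind NF-Y. Promoter windows in the RefSeq table of GRCm38.p6, from 250 bases before to 50 after the gene start, were at hand for 42 of the 51 genes, in 47 windows since some genes have several starts. They were searched on both strands for TTTGAA or TTCGAA (CHR), for CCAAT, and for TTTGGCGC or TTTCGCGC (E2F sites). TTCGAA is its own reverse and was counted once per position, and matches of different motifs may share bases. A CHR match stood in 31 of 47 windows (66.0%), against 19.2% of all 32851 windows. A CCAAT match stood in 76.6% against 37.4%, and both together in 61.7% against 7.52%. E2F matches stood in 2 of 47 windows (4.26%), those of Cdk1 and Ncapd2, against 0.813% of all. Related lists held CHR matches too, in 61.1% of 54 windows of other G2 and M genes and 90% of 10 windows of mitotic kinesins, where E2F matches stood in 3.7% and 20%. The 41 windows of DNA replication genes held CHR matches in 24.4% and E2F matches in 26.8%.

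The stretch from 150 bases before to 30 after the start is shown for 6 genes whose values were given above: among the genes with values in every array and a CHR match, those with the smallest p. Capitals mark the CHR and CCAAT matches, in either orientation (TTCAAA and ATTGG are the reverse strand), and each line reads 5′ to 3′ along the gene.
Mki67: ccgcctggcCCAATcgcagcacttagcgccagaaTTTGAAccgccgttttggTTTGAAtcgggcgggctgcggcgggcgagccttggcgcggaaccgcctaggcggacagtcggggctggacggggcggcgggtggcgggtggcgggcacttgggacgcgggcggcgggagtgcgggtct
Top2a: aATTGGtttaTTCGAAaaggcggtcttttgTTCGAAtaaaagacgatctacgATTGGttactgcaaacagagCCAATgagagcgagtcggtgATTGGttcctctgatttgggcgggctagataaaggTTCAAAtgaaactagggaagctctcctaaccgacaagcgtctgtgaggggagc
Ccnb2: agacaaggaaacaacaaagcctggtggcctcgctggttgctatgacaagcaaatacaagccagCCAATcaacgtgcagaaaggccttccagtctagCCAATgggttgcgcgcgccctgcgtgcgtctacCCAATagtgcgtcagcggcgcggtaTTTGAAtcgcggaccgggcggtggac
Ttk: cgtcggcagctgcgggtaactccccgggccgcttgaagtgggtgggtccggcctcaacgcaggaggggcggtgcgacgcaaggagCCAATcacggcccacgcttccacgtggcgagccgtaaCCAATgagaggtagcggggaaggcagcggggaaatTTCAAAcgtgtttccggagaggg
Ccnf: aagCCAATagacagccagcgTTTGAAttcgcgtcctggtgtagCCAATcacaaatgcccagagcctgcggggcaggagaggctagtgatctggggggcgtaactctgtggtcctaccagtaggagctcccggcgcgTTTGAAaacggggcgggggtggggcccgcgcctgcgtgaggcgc
Spc25: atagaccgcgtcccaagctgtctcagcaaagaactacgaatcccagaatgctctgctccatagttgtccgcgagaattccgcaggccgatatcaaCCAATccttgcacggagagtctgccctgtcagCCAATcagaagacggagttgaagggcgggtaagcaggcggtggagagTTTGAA
They lie at chr7:135716350-135716529 (minus strand), chr11:99024160-99024339 (minus strand), chr9:70421525-70421704 (minus strand), chr9:83834539-83834718 (plus strand), chr17:24251380-24251559 (minus strand) and chr2:69206184-69206363 (minus strand), all GRCm38.p6. In Ccnb2, Ttk and Spc25 a CHR match begins 5, 8 and 25 bases into the gene, and CCAAT matches stand before the start, 3 of them in Ccnb2. In Top2a 4 CCAAT matches and 3 CHR matches lie in the stretch shown. Cenpe, the gene with the smallest p, had a CCAAT match but no CHR match in its window.

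**Figure D4:**
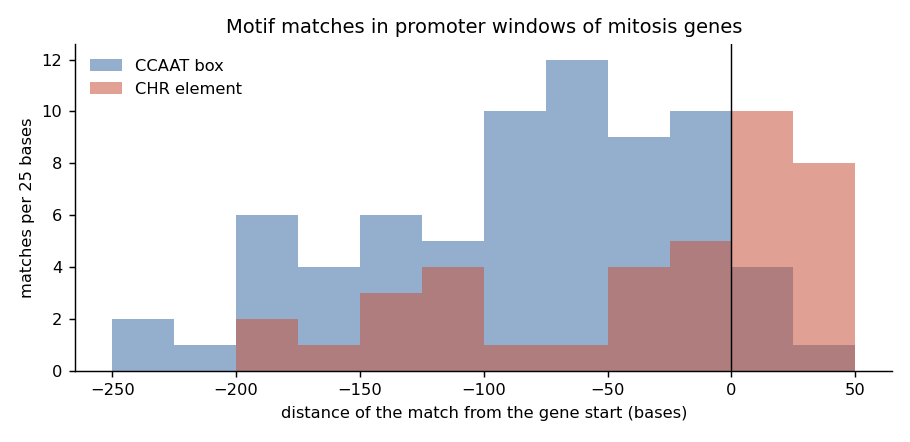
Distance of CHR and CCAAT matches from the gene start in the first promoter window of 42 mitosis genes, in bins of 25 bases. CHR matches (39, median position -14) gather at the start, and CCAAT matches (70) have a median position of -72.5. Over all promoters the median positions are -125 for CHR and -91 for CCAAT.

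Within the first window of each gene 27 of 39 CHR matches (69.2%) began within 50 bases of the start, against 24.7% over all promoters. For CCAAT it was 24 of 70 matches (34.3%), against 28.3% over all promoters. The limit of 50 bases was chosen after the positions were seen. The 28 genes with a CHR match in any window had a median difference of -0.41, and 22 of them an unadjusted p under 0.05. The 14 without one had a median of -0.17, with 6 at that threshold. A split by CCAAT matches gave much the same. The 31 genes with a CCAAT match had a median of -0.39, with 23 at that threshold, and the 11 without one -0.17, with 5. Both motifs stood together in a window of 26 genes, so the splits are not separate. These values describe the list and were not tested, and a match shows letters, not binding.

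Other cell cycle genes, grouped by function, were read from the same fit. Of 60 measured further genes of G2 and M, 54 were below 0 with a median of -0.21. Of these 34 (56.7%) were lower at an unadjusted p under 0.05 and none higher, against 5.46% and 4.81% of all genes. After adjustment 0 of the 60 passed. Without flox/flox replicate 4 the count of 34 was 22, and with the fibroblast score as covariate 15. Those with the smallest p were Sgo2a, which protects centromeric cohesin (-0.38 ± 0.08 SE), the spindle protein gene Ckap2l (-0.47 ± 0.10) and Knl1, the kinetochore scaffold of the checkpoint (-0.48 ± 0.11), while Cenpl had the largest p (0.03 ± 0.11). Among 11 mitotic kinesins all were below 0, with a median of -0.25, and 9 (81.8%) had an unadjusted p under 0.05, against 5.46% of all genes lower. With 1 array left out that count ran from 7 to 10. Over the other alternatives, among them the test of brighter genes only, it ran from 2 to 10. Kif11, which pushes the spindle poles apart, passed the limma threshold (adjusted p = 0.0172), and fell from 145.4 ± 7.496 to 91.4 ± 4.73 (SD, n = 4), a difference of -0.59 ± 0.07 (SE). Its adjusted p was above 0.05 with the replicate block (0.0521), over all probe sets (0.1), with the B cell (0.0504) or fibroblast (0.0651) score as covariate, and without flox/+ replicate 3 (0.0505), flox/+ replicate 4 (0.0935), flox/flox replicate 1 (0.0628) or flox/flox replicate 4 (0.0645). Kif18a, with the largest p of the kinesins, was at -0.12 ± 0.07 (SE).

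**Figure D5:**
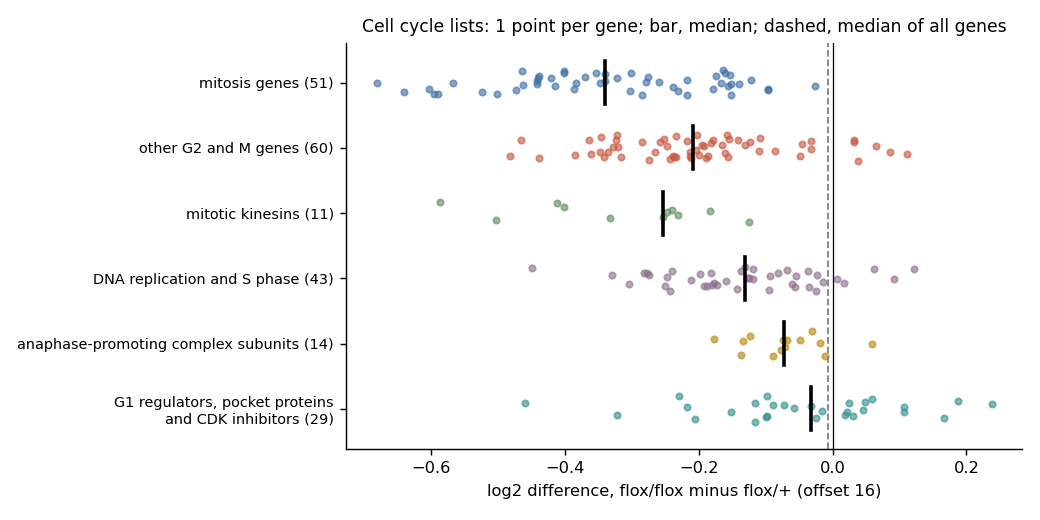
Log2 difference (flox/flox less flox/+, offset 16) of each gene in 6 cell cycle lists; black bars are medians and the dashed line is the median of all genes (-0.01). The medians are -0.34 for the mitosis genes, -0.21 for other G2 and M genes, -0.25 for mitotic kinesins and -0.13 for DNA replication.

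DNA replication genes lay nearer to 0. Their median was -0.13 over 43 genes, 38 of them below 0 and 5 above. At an unadjusted p under 0.05, 12 (27.9%) were lower, against 5.46% of all genes. In 5 (11.6%) every flox/flox value lay below every flox/+ value, against 3.16% of all genes. Rfc2 of the clamp loader (-0.30 ± 0.08 SE), the polymerase gene Pole (-0.27 ± 0.08) and Dbf4, the activator of the CDC7 kinase (-0.25 ± 0.07), had the smallest p. Gins3 of the replicative helicase was at 0.01. The replication mean overlapped between the genotypes: it was -0.20 and -0.12 in flox/flox replicates 1 and 2 but 0.02 and 0.04 in replicates 3 and 4, against 0.01 to 0.14 in flox/+ glands. Flox/flox replicate 4 thus had low mitosis genes and replication genes at the control level. The count of 12 replication genes moved with single arrays, to 5 when flox/+ replicate 1 was left out, to 4 for flox/+ replicate 3, to 4 for flox/flox replicate 1 and to 7 for flox/flox replicate 2.

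Subunits of the anaphase-promoting complex, which are present throughout the cycle, and an activator of it had a median of -0.07 over 14 genes. Of these genes 13 lay below 0 and 1 above. Their mean narrowly did not overlap between the genotypes, at most 0.0041 in flox/flox and at least 0.0073 in flox/+ glands. Of the 14 genes 1 was lower at an unadjusted p under 0.05, Cdc27 (-0.18 ± 0.07 SE). This is 7.14% of the genes, near the 5.46% of all genes that were lower by the same rule. That count was 0 without flox/+ replicate 1, flox/flox replicate 1 or flox/flox replicate 4, and 2 without flox/+ replicate 3, flox/+ replicate 4 or flox/flox replicate 2. The largest p was that of Anapc5 (-0.01 ± 0.06 SE). Regulators of G1, pocket proteins and CDK inhibitors had a median of -0.03 over 29 genes, 17 below and 12 above 0. Of these 5 (17.2%) were lower at an unadjusted p under 0.05 and 1 higher, against 5.46% and 4.81% of all genes. Without flox/flox replicate 4, 3 were lower. The smallest p was that of Cdkn1c, the CDK inhibitor p57, which read 719 ± 86.9 in flox/+ and 519 ± 63.6 in flox/flox glands (SD, n = 4; adjusted p = 0.197 by limma). It was followed by E2f8, a repressor of E2F targets (-0.32 ± 0.10 SE), and Cdkn2a, which encodes the inhibitor p16 and ARF (-0.22 ± 0.07). Ccnd1, encoding cyclin D1, had the largest p and read 807 ± 136 and 821 ± 129 (SD, n = 4).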

How the data were processed

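RNA of 8 mammary glands was measured on Affymetrix Gene 1.0 ST arrays, 4 per genotype. Genotype and replicate number came from the sample titles, and every column of the table matched a sample. Per the submitters' processing notes the authors used PLIER, run from Affymetrix Expression Console 1.0, and they deposited 1 linear intensity per probe set. For background and array differences their treatment is not given in the sources used here. Precision is limited by the number of arrays.

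Of 35557 probe sets 21789 had 1 gene symbol in the platform annotation, 1621 had several and 12147 were unnamed; 21698 of the first kind matched RefSeq of GRCm38.p6 by gene identifier. Values were offset by 16, taken to log2 and quantile normalized over all probe sets, since the array percentiles spread by up to 0.245, above a tolerance of 0.1. Genotype effects came from limma 3.58.1 (lmFit, eBayes; R 4.3.3) over 19938 genes, with Benjamini-Hochberg adjustment and a threshold of 0.05. The scripts were tested on simulated data. Each gene was represented by its brightest probe set. The labels do not say that equal replicate numbers mark shared litters, and the arrays were not paired. The list, its roles, the other lists and the motifs were chosen with earlier results of these data known. Values in every array are given for the 3 genes with the smallest p and the 1 with the largest in each role; at most 3 genes with the smallest p and the 1 with the largest are named from each other list. Where named outside this rule, a gene is any other member of the list, or Sox9. Alternatives were the replicate block, no normalization, median centring, offsets of 1 and 64, only the brighter genes, all probe sets, means over probe sets, trend and robust options, array weights, marker scores as covariates, each array left out, and, chosen after seeing the data, normalization over the gene probe sets alone.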

Additional observations from a re-analysis of the deposited data

Results flagged for a closer look

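In groups of 4 arrays, a value was singled out when its gap to the nearest of the others, as a share of the group's range, exceeded the critical value of Dixon's test, which chance does in about 1 of 20 groups; 6 of the 72 groups examined here gave such a value. Flox/flox replicate 3 was high for Ccna2 (224, others 164 to 171), Nusap1 (115, others 81.0 to 85.3), Mki67 (263, others 198 to 205) and the mean of the chromosomal passenger genes (0.0744, others -0.20 to -0.16). Bub3 was low in flox/+ replicate 4 (569, others 732 to 756) and in flox/flox replicate 1 (600, others 661 to 666).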

How the results depend on the processing

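The median of the mitosis genes stayed negative in all 22 alternatives, between -0.25 (offset of 64) and -0.38, and 0 genes were higher at an unadjusted limma p under 0.05 in each. The number past the adjusted limma threshold, 0 as reported, was 1 (Cenpe) with median centring, with an offset of 64 and with the luminal score as covariate, 2 (Cenpe and Mki67) with trend and robust options, and from 0 to 3 with 1 array left out; the cause was not tested. The number lower at an unadjusted p under 0.05 was 23 with only the brighter genes tested, a filter that left 35 of the 51. It was 36 with the replicate block, where the smallest adjusted p was 0.0521; the correlations of same-numbered arrays' deviations were -0.20, 0.06, 0.21 and -0.10, so the numbers were not taken as pairs. With 1 array left out it ran from 33 to 40, the count without overlap from 25 to 37 and the median from -0.38 to -0.30. A lack of overlap is easier to reach with 1 array fewer, and its share over all genes is not given for those settings. Cenpk turned positive with the fibroblast score as covariate (0.0147), and with 1 array left out it ran from -0.0793 to 0.0057, above 0 without flox/+ replicates 1 (0.0007) or 3 (0.0044) and without flox/flox replicates 1 (0.0057) or 2 (0.0028), and the median of the G1 list did so with the values as deposited (0.0014). Of genes outside the list that lay near 0, the sign turned with the B cell score as covariate for Cenpl (-0.0409), Gins3 (-0.0161), Anapc5 (0.0018) and Ccnd1 (-0.039), with the fibroblast score for Ccnd1 (-0.0199), and for Anapc5 with median centring (0.0209) and without normalization (0.0224); with 1 array left out Cenpl ran from -0.034 to 0.1138, Gins3 from -0.0138 to 0.0171, Anapc5 from -0.0408 to 0.0074 and Ccnd1 from -0.0565 to 0.1333. The replicate block ended the call of Kif11, the only call in the cell cycle lists. Called genes outside these lists were not followed one by one. No detection calls were used, and 16 of the 51 genes were among the dimmest, the genes that the filter on brightness left out.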
